A study of Mus musculus with 4 samples.

Results

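Regulatory T (Treg) cells are held in their identity by the transcription factor Foxp3 and by the cytokine IL-2, and the genes described here are 10 that carry this identity. They were chosen by name from the 47729 genes listed: *Foxp3*; the IL-2 receptor chains *Il2ra*, *Il2rb* and *Il2rg*; the Ikaros family factors *Ikzf2* (Helios) and *Ikzf4* (Eos); the surface receptors *Nrp1* and *Gpr83*; and *Stat5a* and *Stat5b*, which carry the IL-2 signal to the nucleus. RNA was sequenced from sorted splenic Treg cells of C57BL/6 mice, with 2 libraries of each genotype. WT stands for *Tfrc* +/+ *Foxp3* YFP-Cre/+, and TfR1 cko, as the labels write it, for *Tfrc* fl/fl *Foxp3* YFP-Cre/+. *Tfrc* encodes TfR1, the transferrin receptor through which cells take up iron, and the comparison asks what the loss of TfR1 changes in Treg cells. All 4 libraries carry the *Foxp3* YFP-Cre allele. The mice were females heterozygous for it, untreated as far as the labels state, and the study describes such animals as age-matched young adults. Cre is made from the *Foxp3* locus, which is X-linked, so only Treg cells using the marked X chromosome make Cre and YFP. The methods describe a sort of CD25+ YFP+ cells for both genotypes, whereas legends of the study name YFP+ CD4+ cells. By the methods, the protein of *Il2ra* and the reporter of *Foxp3* were used to pick the cells in every library. The labels name the spleen as the tissue, whereas a legend of the study names spleens and lymph nodes. The labels number the replicates, and the study calls them biological replicates without saying which animals each came from.

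As background, CD25 (the product of *Il2ra*) raises the affinity of the receptor for IL-2, while CD122 (*Il2rb*) and the common gamma chain (*Il2rg*) carry the signal inside the cell. The kinases JAK1 and JAK3 then phosphorylate STAT5, which binds DNA at the *Foxp3* locus and other genes, and Foxp3 in turn sustains *Il2ra*. Treg cells make little IL-2 themselves and depend on the IL-2 of other T cells. Helios and Eos act beside Foxp3 in the Treg nucleus, and Nrp1 (neuropilin-1) and Gpr83, an orphan G protein-coupled receptor, are surface proteins abundant on Treg cells.

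*Tfrc* was checked in each library before the other genes. *Tfrc* was at 50.8 and 54.1 CPM (counts scaled to the library total, corrected between libraries by the TMM method) in WT and at 56.1 and 48.3 CPM in the libraries whose labels name TfR1 cko. The 2 groups overlapped, with a log2 fold change of -0.01 ± 0.16 (SE). The adjusted p was 0.999, from the quasi-likelihood test of edgeR followed by the Benjamini-Hochberg method. A count over the whole gene does not show whether floxed exons are missing, so every direction below rests on the labels, and these libraries are called cko-labelled. Totals ranged from 10841939 to 17278448 counts per library. WT replicate 1 and TfR1 cko replicate 2 stood apart from the other 2 libraries. The summed level of 15 macrophage markers was 1161 and 3485 CPM in these, against 96.6 CPM (WT replicate 2) and 70.6 CPM (TfR1 cko replicate 1) in the others. In WT replicate 2, 2 of the 15 markers were at 0, and no other library lacked any. The summed level of 12 proliferation genes was 1427 and 1356 CPM in the same 2 libraries, against 485 and 530.0 CPM. The 5 erythroid markers found were lowest in WT replicate 1, summing to 26.8 CPM, and highest in TfR1 cko replicate 2, at 446 CPM, so the libraries high in macrophage RNA were not alike in these. The other 2 libraries lay between, WT replicate 2 at 156 CPM and TfR1 cko replicate 1 below it. Markers of B cells summed to at most 44.2 CPM, and those of CD8 T, NK, dendritic cells and neutrophils to at most 12.6 CPM. The 6 CD4 T-cell markers summed to 3907 and 3677 CPM in WT and to 3071 and 3197 CPM in the cko-labelled libraries. They were present in every library, and so were *Foxp3* and *Il2ra*, the defining markers of Treg cells. By the methods the *Foxp3* reporter and the *Il2ra* protein picked the cells, so the presence of these genes is no independent check of identity.

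None of the 10 genes passed the test between the genotypes after adjustment over all genes, and the 2 with the largest differences were *Ikzf4* (Eos) and *Nrp1*, both lower in the cko-labelled libraries. Of the 10, 8 were lower and 2 higher in the cko-labelled libraries, with a median log2 fold change of -0.24, against 0.01 over the 12536 genes tested and quartiles of -0.20 and 0.23. The general CD4 T-cell markers were lower by a similar median of -0.26, in 6 of 6 genes, of which 4 had both cko-labelled libraries below both WT libraries. A list of 13 pan T-cell genes had a median of -0.09, with 8 lower and 5 higher. The part of either list in the members' values was not tested. At an unadjusted p under 0.05 with a log2 fold change of at least 0.5 in size, *Ikzf4* and *Nrp1* were lower and 0 members were higher. By this rule 2.48% of all tested genes were lower and 1.60% higher. With any size of change, 655 of the 12536 genes had an unadjusted edgeR p under 0.05, against 626.8 expected if no gene differed. At an adjusted p under 0.05, edgeR called 0 members and 0% of the tested genes, and DESeq2 also called 0 members, although it called 6 genes higher and 28 lower. In 6 of the 10 genes both cko-labelled libraries lay below both WT libraries, as in 18.9% of all tested genes, and in 1 both lay above, as in 16.0% of them. Relative to the summed counts of 13 pan T-cell genes, a scale added after seeing the data, only *Foxp3*, *Ikzf4* and *Nrp1* kept both cko-labelled libraries below, 3 of the 10 against 15.4% of all tested genes. On that scale *Il2ra*, *Il2rb* and *Stat5a* overlapped, and the 1 gene with both above, as in 16.6% of all, was *Il2rg*, by a narrow margin, in place of *Gpr83*. All 10 passed the filter on low counts.

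**Figure D1:**
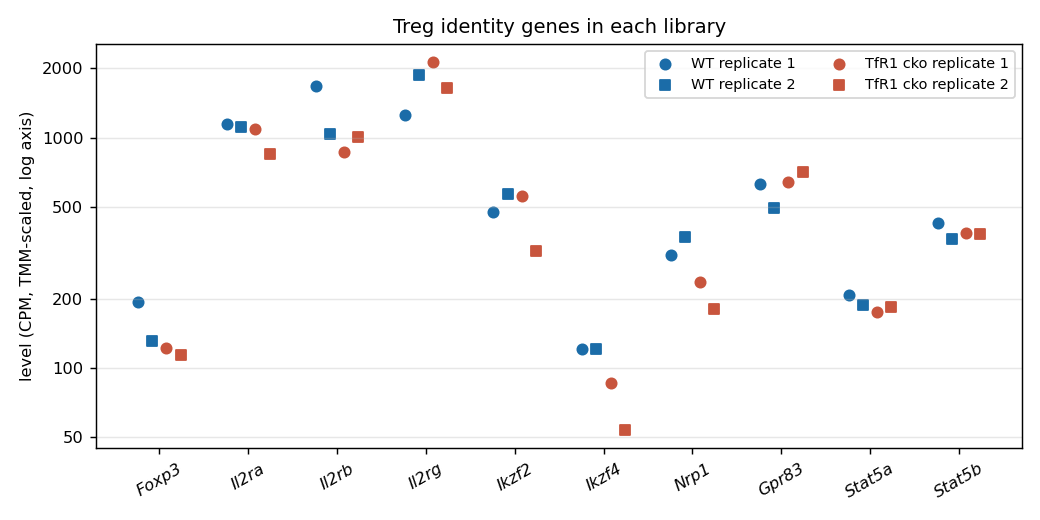
Level of each of the 10 genes in each library, in TMM-scaled CPM on a log axis. Each point is 1 library, blue for WT and red for TfR1 cko. Both red points lie below both blue points for Foxp3, Il2ra, Il2rb, Ikzf4, Nrp1 and Stat5a, and above them for Gpr83.

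*Foxp3* (Ensembl ENSMUSG00000039521, chrX:7156802-7172369, plus strand, mm9), the lineage factor of Treg cells, was at 194 CPM in the first and 130.3 CPM in the second WT replicate, and at 122 and 114 CPM in TfR1 cko replicates 1 and 2. The means were 162 ± 45.1 CPM in WT and 118 ± 5.18 CPM in the cko-labelled libraries (SD, n = 2 each). WT replicate 1 stood apart, and the other 3 libraries lay close together, so the groups did not overlap but the gap between them was small. The log2 fold change was -0.46 (95% interval -1.02 to 0.11), with an edgeR p of 0.092 unadjusted and 0.911 adjusted. Without WT replicate 1 it was -0.13, and without WT replicate 2 it was -0.72, with an unadjusted edgeR p of 0.014. Relative to the pan T-cell genes, *Foxp3* stood at 1.65% in WT replicate 1 and at 0.934%, 0.906% and 0.932% in WT replicate 2, TfR1 cko replicate 1 and TfR1 cko replicate 2. On that scale WT replicate 2 and TfR1 cko replicate 2 had nearly the same value. In bulk RNA fewer cells of a kind and less RNA per cell cannot be told apart.

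The genes whose pattern over the 4 libraries was most like that of *Foxp3*, by the root mean square difference between log2 CPM values centred on their own means, were *Hif1a* (0.034), *Cdc25b* (0.035), *Ranbp2* (0.037), *A830007P12Rik* (0.043) and *Slc26a2* (0.043). They were found among 6550 tested genes with a mean of at least 20 CPM, of which 58 lay within 0.1 of *Foxp3*. *Hif1a* encodes an oxygen-sensitive subunit of a transcription factor. Its levels of 154 and 108 CPM in WT and 98.3 and 96.1 CPM in the cko-labelled libraries followed the same order as those of *Foxp3*. With 4 libraries such likeness describes these samples only.

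A match to the core of a STAT binding site lay close to a RefSeq start of *Foxp3*. The motif searched was TTCNNNGAA, which reads the same on both strands, in the 300 bases from 250 before to 50 after each gene start in the RefSeq promoters of GRCm38.p6. Of the 10 genes, 7 had a promoter in that table, with 10 promoters among them, and 1 of the 10 held the motif, against 8.3% of all 32851 promoters. It is shown because STAT5 is the link between the IL-2 receptor and *Foxp3*. It starts at position -139 from the RefSeq start of that promoter, at chrX:7580336-7580360 of GRCm38.p6 on the plus strand with its flanks. That start need not be the one in the mm9 coordinates of *Foxp3* given above. Capitals mark the motif.
*Foxp3* promoter: gctctgttTTCCAAGAAcgggcatt
The match is a description of the letters, and binding was not measured.

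The 3 chains of the IL-2 receptor differed in direction. *Il2ra* and *Il2rb* were lower, and *Il2rg* was higher on average, in the cko-labelled libraries, and none of these differences passed the test. *Il2ra* (ENSMUSG00000026770, chr2:11564419-11614818, plus strand), whose product the methods name for the sort, was at 1151 and 1111 CPM in WT and at 1087 and 853 CPM in the cko-labelled libraries. TfR1 cko replicate 2 lay below the other libraries, which were close together. This gave a log2 fold change of -0.22 (95% interval -0.65 to 0.21, edgeR adjusted p = 0.95), and -0.06 without TfR1 cko replicate 2. The genes most like *Il2ra* over the 4 libraries were *Dync1li2* (root mean square difference 0.017), *Ncoa3* (0.018), *Tapbpl* (0.019), *Creb1* (0.02) and *Gm12250* (0.022), and 341 of the 6550 genes lay within 0.1 of it. A pattern in which only TfR1 cko replicate 2 is low was therefore shared by many genes.

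*Il2rb* (ENSMUSG00000068227, chr15:78310983-78325496, minus strand) was at 1676 and 1033 CPM in WT and at 863 and 1009 CPM in the cko-labelled libraries. The groups touched without overlapping, since WT replicate 2 and TfR1 cko replicate 2 were almost equal and WT replicate 1 was far above the rest. The log2 fold change was -0.53 (95% interval -1.20 to 0.13), with an edgeR p of 0.095 unadjusted and 0.911 adjusted, and it was -0.13 without WT replicate 1 and -0.84 without WT replicate 2, the latter with an unadjusted p of 0.012. Relative to the pan T-cell genes the groups overlapped, at 14.3% and 7.41% in WT and 6.43% and 8.23% in the cko-labelled libraries. *Il2rg* (ENSMUSG00000031304, chrX:98459717-98463594, minus strand), a chain shared with the receptors for several other cytokines, was at 1249 and 1864 CPM in WT and at 2125 and 1641 CPM in the cko-labelled libraries. The groups overlapped, and the log2 fold change of 0.27 (95% interval -0.36 to 0.91, edgeR adjusted p = 0.951) was 0.02 without WT replicate 1.

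Per kilobase of exon, the scale on which genes can be compared, the balance of *Il2rb* and *Il2rg* varied more than the share of *Il2ra*. *Il2rb* made up 44.5% of their summed CPM per kb in WT replicate 1 and 27.1% in WT replicate 2, against 21.9% in TfR1 cko replicate 1 and 29.8% in TfR1 cko replicate 2. These shares overlapped between the groups. The share of *Il2ra* was narrower, at 16.7% and 15.9% in WT and at 15.1% and 13.8% in the cko-labelled libraries, and it did not overlap. *Il2rg* held the rest, at 38.7% and 57.0% in WT and 63.0% and 56.5% in the cko-labelled libraries. These shares were chosen as a summary after the values had been seen, and 2 against 2 libraries cannot give an exact permutation p below 0.333.

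**Figure D2:**
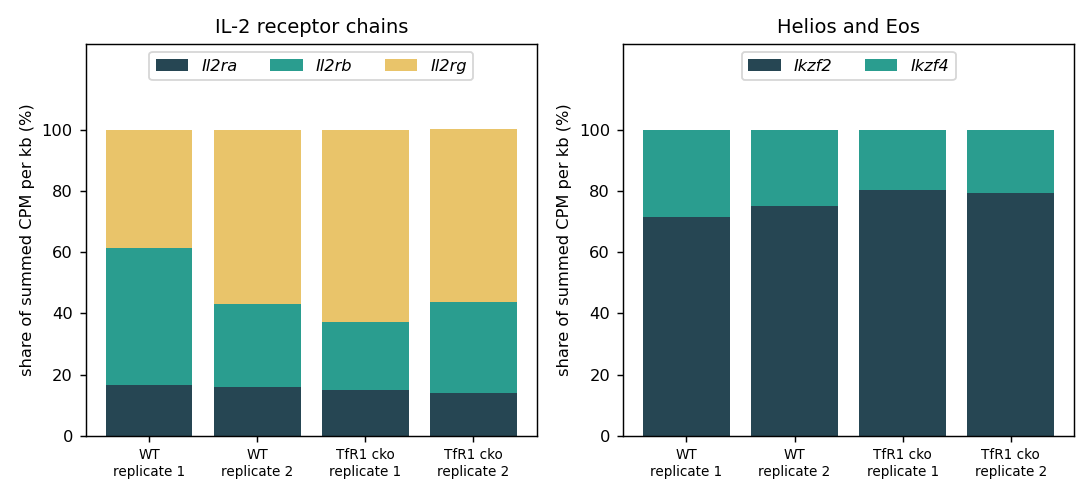
Share of the summed CPM per kb of exon held by each IL-2 receptor chain (left) and by Helios and Eos (right), one stacked bar per library, in percent. WT replicate 1 has the largest Il2rb share, 44.5%, and the Ikzf4 share is 28.4% and 24.8% in WT against 19.6% and 20.7% in TfR1 cko.

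Among the Ikaros family factors, *Ikzf4* was lower in the cko-labelled libraries and *Ikzf2* was not separated. *Ikzf4* (ENSMUSG00000002578, chr10:128067899-128083047, minus strand), which encodes Eos, a partner of Foxp3 in gene repression, was at 120.3 CPM in each WT library, against 86.4 and 53.7 CPM in the cko-labelled libraries. The groups did not overlap, and the cko-labelled libraries differed from each other by about as much as the nearer one differed from WT. The means were 120.3 ± 0.0465 CPM and 70.1 ± 23.1 CPM (SD, n = 2 each). The log2 fold change was -0.78 (SE 0.25, 95% interval -1.41 to -0.14), with an edgeR p of 0.025 unadjusted and 0.911 adjusted. DESeq2 gave an adjusted p of 0.479. Each library left out in turn gave between -1.16 and -0.48, the smaller change being without TfR1 cko replicate 2. Only without TfR1 cko replicate 1 was the unadjusted edgeR p under 0.05 in these fits, at 0.0025.

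*Ikzf2* (ENSMUSG00000025997, chr1:69577788-69732534, minus strand), which encodes Helios, was at 477 and 572 CPM in WT and at 556 and 322 CPM in the cko-labelled libraries. TfR1 cko replicate 1 lay between the WT libraries and TfR1 cko replicate 2 below them. Its log2 fold change was -0.26 (95% interval -0.99 to 0.47, edgeR adjusted p = 0.955), and it turned to 0.08 without TfR1 cko replicate 2. Per kilobase of exon, the ratio of *Ikzf4* to *Ikzf2* was 0.396 and 0.330 in WT and 0.244 and 0.262 in the cko-labelled libraries. Both ratios in the latter were below both in WT. This ratio was chosen after the values had been seen and was not tested. The other Ikaros genes, *Ikzf1*, *Ikzf3* and *Ikzf5*, had log2 fold changes between -0.26 and 0.11 with a median of -0.19, and 0 of the 3 had an unadjusted p under 0.05 with the minimum change. *Ikzf1*, the founding member of the family, was at 429 and 391 CPM in WT and at 435 and 453 CPM in the cko-labelled libraries.

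The surface receptors *Nrp1* and *Gpr83* went in opposite directions. *Nrp1* (ENSMUSG00000025810, chr8:130882973-131029362, plus strand), a semaphorin and VEGF co-receptor used to mark thymus-derived Treg cells, was at 308 and 370.3 CPM in WT and at 237 and 181 CPM in the cko-labelled libraries. Both of the latter lay below both WT libraries. The means were 339 ± 44.3 CPM and 209 ± 39.6 CPM (SD, n = 2 each). The log2 fold change was -0.70 (SE 0.20, 95% interval -1.20 to -0.20), with an edgeR p of 0.015 unadjusted and 0.911 adjusted, and DESeq2 gave an adjusted p of 0.287. Leaving out each library in turn gave between -0.91 and -0.52, with unadjusted edgeR p from 0.012 to 0.075. The difference was present on the scale of the pan T-cell genes as well, at 2.62% and 2.66% of their counts in WT and 1.76% and 1.47% in the cko-labelled libraries.

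*Gpr83* (ENSMUSG00000031932, chr9:14664654-14675233, plus strand) was at 629 and 494 CPM in WT and at 643 and 712 CPM in the cko-labelled libraries. It was the 1 member with both cko-labelled libraries above both WT libraries, and the margin between WT replicate 1 and TfR1 cko replicate 1 was narrow. Its log2 fold change was 0.27 (95% interval -0.17 to 0.71, edgeR adjusted p = 0.934), and 0.11 without WT replicate 2. Relative to the pan T-cell genes it overlapped between the groups, at 5.35% and 3.54% in WT and 4.79% and 5.80% in the cko-labelled libraries. Of 12 genes encoding co-receptors, ligands and partners of Nrp1, 6 passed the filter on low counts, with a median log2 fold change of 0.12, 1 higher and 0 lower at an unadjusted p under 0.05 with the minimum change. That gene was *Nrp2*, the relative of *Nrp1*, at 2.05 and 1.97 CPM in WT and 4.15 and 4.16 CPM in the cko-labelled libraries. The groups did not overlap, at a level far below that of *Nrp1*, with a log2 fold change of 1.05 (SE 0.38, edgeR adjusted p = 0.911).

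The STAT5 genes varied least of the 10, with a ratio of the highest to the lowest library of 1.19 for *Stat5a* and 1.17 for *Stat5b*. *Stat5a* (ENSMUSG00000004043, chr11:100720665-100746483, plus strand) was at 208 and 187 CPM in WT and at 175 and 183 CPM in the cko-labelled libraries. The latter were both lower, by a margin smaller than the distance between the WT libraries, and the log2 fold change was -0.14 (95% interval -0.50 to 0.21, edgeR adjusted p = 0.955). *Stat5b* (ENSMUSG00000020919, chr11:100642045-100712038, minus strand), its neighbour on the chromosome, was at 426 and 364 CPM in WT and at 387 and 383 CPM in the cko-labelled libraries. The groups overlapped, with a log2 fold change of -0.04 (95% interval -0.41 to 0.33, edgeR adjusted p = 0.99) that turned to 0.09 without WT replicate 1. Per kilobase of exon, *Stat5b* exceeded *Stat5a* in every library, by a ratio of 2.64 and 2.50 in WT and of 2.84 and 2.69 in the cko-labelled libraries. The other STAT genes had a median log2 fold change of -0.14 over 5 genes, with 0 past an unadjusted p under 0.05 and the minimum change. That median was -0.34 without TfR1 cko replicate 1 and -0.23 without WT replicate 1, and it turned to 0.03 without WT replicate 2 or without TfR1 cko replicate 2. *Stat3*, the most highly counted, was at 731 and 755 CPM in WT and 844 and 692 CPM in the cko-labelled libraries.

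*Stat5a* and *Stat5b* are close relatives, and reads lying wholly within their shared stretches cannot be assigned to one of them by sequence. Of the 50-base windows in the GENCODE vM1 transcripts, 15.2% of those of *Stat5a* and 11.1% of those of *Stat5b* occurred in another gene, and 608 were shared between the 2. Their coding sequences hold an identical run of 324 bases, from coding position 571 to 894 in both. The start of that run is shown to make the likeness visible, with its first 60 bases in capitals after the 30 bases before it.
*Stat5a*: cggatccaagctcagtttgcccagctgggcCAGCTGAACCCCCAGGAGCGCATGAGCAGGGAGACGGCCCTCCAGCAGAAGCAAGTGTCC
*Stat5b*: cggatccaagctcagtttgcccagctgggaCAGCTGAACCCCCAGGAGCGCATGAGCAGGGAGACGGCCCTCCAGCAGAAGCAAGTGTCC
How such reads were counted is not given in the sources used here, so the split between the 2 genes is uncertain. *Il2rg* shared 40.8% of its windows with *Gm20489*, which covers 30.5% of its exon bases on the same strand and had 1 count in WT replicate 1 and 0 in the other 3 libraries. *Foxp3* shared 10.2% of its windows with *Ccdc22*, which overlaps 14.9% of its exon bases on the opposite strand and had 0 counts in all 4 libraries. Also over *Foxp3* were *4930524L23Rik*, on the same strand over 6.75% of its exon bases with 104 to 154 counts per library, and *Ppp1r3f*, on the opposite strand over 9.44% with 16 to 49 counts. The other 6 members shared under 1% of their windows with any gene.

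Compared with each other per kilobase of exon, the 10 genes spanned a wide range of levels. Mean CPM per kb over the 4 libraries was 720.4 for *Il2rg*, 411 for *Il2rb* and 206 for *Il2ra*, which stood at percentiles 99.6, 99.1 and 97.7 of the tested genes with a known exon length. *Il2rb* and *Il2rg* overlapped over the 4 libraries, at 309.9 to 602 and 523 to 890.1 CPM per kb, while *Il2ra* lay below both, at 167 to 226. *Gpr83* followed with a mean of 122 CPM per kb and *Stat5b* with 70.4, and neither overlapped with its neighbours in this order. *Ikzf2*, *Nrp1* and *Foxp3*, with means of 51.2, 46.4 and 35.4 CPM per kb, overlapped in their ranges. *Stat5a*, with a mean of 26.4, reached the lowest library of *Foxp3*, and *Ikzf4*, with a mean of 15.9, lay below all others. *Foxp3* itself stood at percentile 82.1.

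**Figure D3:**
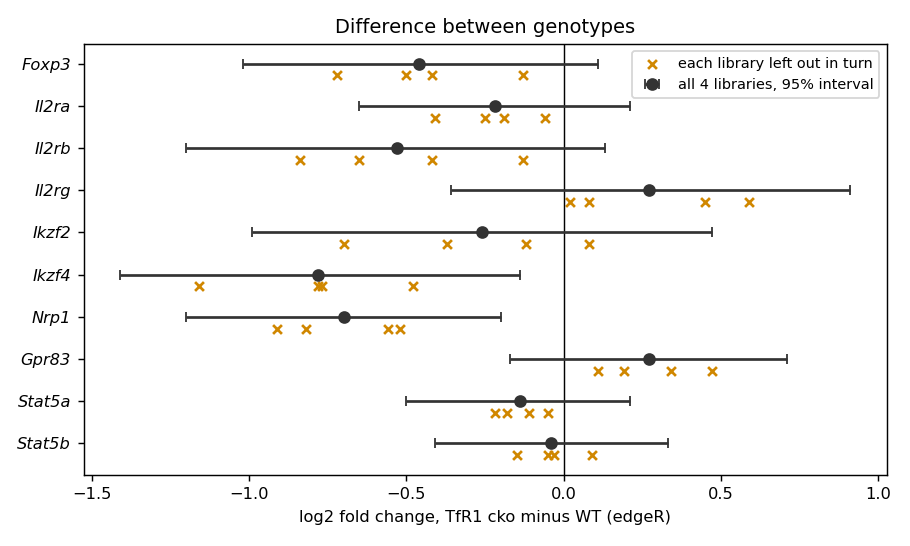
Log2 fold change of each gene, TfR1 cko minus WT, from edgeR. Black points and bars give the value over all 4 libraries with its 95% interval, and orange crosses give the values with each library left out in turn. Only the intervals of Ikzf4 (-1.41 to -0.14) and Nrp1 (-1.20 to -0.20) lie to one side of 0.

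The size of these differences varied with the libraries compared. WT replicate 1 and TfR1 cko replicate 2 both carried macrophage RNA, and the other 2 libraries carried little, so the difference between genotypes was also taken within each of these pairs, without a test. *Foxp3* differed by -0.10 in log2 CPM between the libraries low in macrophage RNA and by -0.76 between those high in it. *Il2rb* differed by -0.26 and -0.73, *Il2ra* by -0.03 and -0.43, and *Ikzf2* by -0.04 and -0.57, in the same order. For these 4 genes most of the difference lay in the pair high in macrophage and proliferation RNA. *Ikzf4* differed by -0.48 and -1.16, and *Nrp1* by -0.64 and -0.77, so the difference of *Nrp1* was of similar size in both pairs. *Gpr83* differed by 0.38 and 0.18, *Il2rg* by 0.19 and 0.39, *Stat5a* by -0.10 and -0.19, and *Stat5b* by 0.09 and -0.16. The median over the 10 genes was -0.07 in the pair low in macrophage RNA and -0.50 in the other. The part of macrophage, erythroid or proliferation RNA in these differences was not tested.

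**Figure D4:**
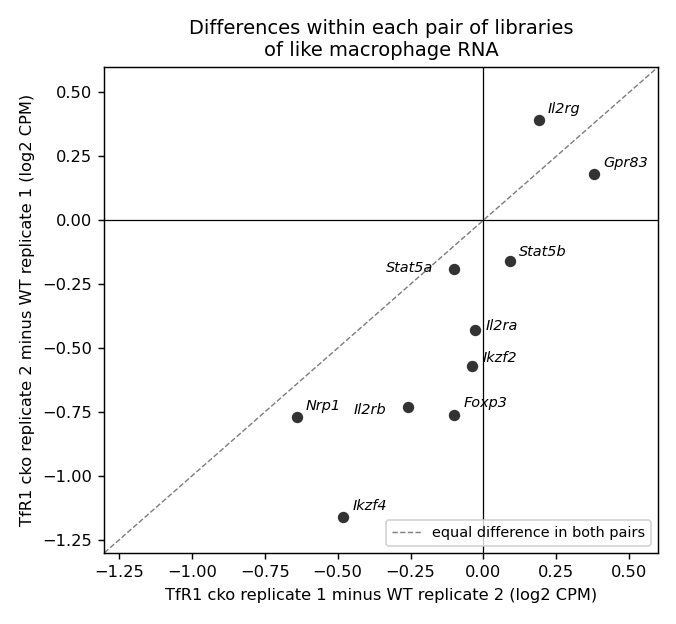
Difference of each gene between a TfR1 cko and a WT library in log2 CPM, in the pair low in macrophage RNA (horizontal axis) and in the pair high in it (vertical axis). The dashed line marks equal differences. Nrp1 lies near the line at -0.64 and -0.77, and Foxp3 lies far below it at -0.10 and -0.76.

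The rest of the IL-2 pathway was examined with a list of 18 genes, from the ligand to known STAT5 targets. Of the 18, 7 were higher and 11 lower in the cko-labelled libraries, with a median log2 fold change of -0.12, and 0 had an unadjusted p under 0.05 with the minimum change. The most highly counted were *Jak1*, the kinase bound to CD122, at 1335 and 1148 CPM in WT and 1412 and 1447 CPM in the cko-labelled libraries, and the cell-cycle gene *Ccnd2*, at 946 and 971 CPM against 1086 and 940.2 CPM. Neither gene passed the test, with edgeR adjusted p of 0.948 and 0.973, and the groups overlapped for *Ccnd2* only. The next 4 genes were picked after their values had been seen. *Il2*, the ligand itself, was between 1.22 and 1.80 CPM in all 4 libraries. *Jak3*, the kinase bound to the common gamma chain, was at 441 and 294 CPM in WT and at 246 and 269 CPM in the cko-labelled libraries, without overlap but with WT replicate 1 far from the rest (log2 fold change -0.52, edgeR adjusted p = 0.911). *Cish*, an inhibitor of cytokine signalling switched on by STAT5, was at 111 CPM in each WT library, against 106 and 101 CPM in the others. *Bcl2*, a survival gene, was at 496 and 519 CPM in WT and at 676 and 677 CPM in the cko-labelled libraries. It was higher by 0.42 on the log2 scale (SE 0.13), with an edgeR p of 0.022 unadjusted and 0.911 adjusted, and the change was under the minimum.

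The receptor chains that pair with the common gamma chain were lower in 4 of 5 genes, with a median log2 fold change of -0.37 and 0 past an unadjusted p under 0.05 with the minimum change. The median was -0.22 without WT replicate 1, -0.23 without TfR1 cko replicate 1 and -0.49 without either of the other 2 libraries. *Il4ra*, the IL-4 receptor chain, was at 599.5 and 528 CPM in WT and 403 and 419.9 CPM in the cko-labelled libraries. *Il21r*, the IL-21 receptor chain, was at 463 and 389 CPM against 299 and 362 CPM. In both genes the groups did not overlap, and the edgeR adjusted p was 0.911.

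**Figure D5:**
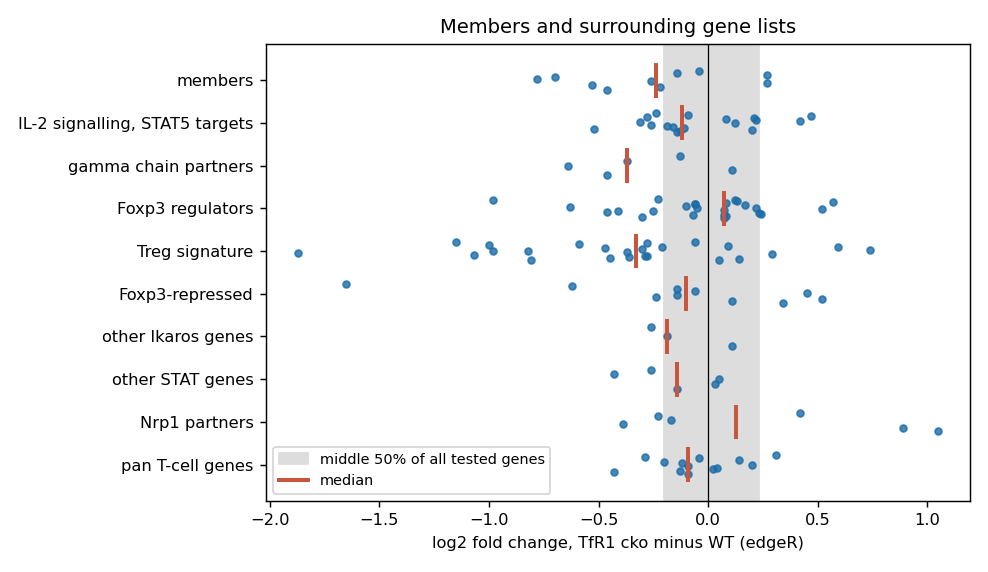
Log2 fold change, TfR1 cko minus WT, of the 10 genes and of the tested genes in each surrounding list. Each blue point is a gene, red bars are list medians and the grey band spans the quartiles of all tested genes, -0.20 to 0.23. The 10 genes, median -0.24, the Treg signature, median -0.33, and the common gamma chain partners, median -0.37, have medians below the band.

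Genes known to bind or control *Foxp3* showed no common direction. Of 25, 13 were higher and 12 lower, with a median log2 fold change of 0.07, and 1 was higher and 2 lower at an unadjusted p under 0.05 with the minimum change. *Satb1*, a chromatin organiser, was at 213 and 206 CPM in WT and at 305 and 294 CPM in the cko-labelled libraries. The replicates of each group were close and the groups were apart, with a log2 fold change of 0.52 (SE 0.13), an edgeR p of 0.01 unadjusted and 0.911 adjusted. *Irf4*, a factor of effector Treg cells, was at 61.4 and 29.9 CPM in WT and at 21.3 and 25.2 CPM in the cko-labelled libraries, and *Nr4a3*, induced by T-cell receptor signals, averaged 27.3 ± 0.576 CPM in WT and 17.7 ± 3.31 CPM in the cko-labelled libraries (SD, n = 2 each). Their log2 fold changes were -0.98 and -0.63, each with an edgeR adjusted p of 0.911, and WT replicate 1 lay far above the other libraries for *Irf4*.

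Most genes of the wider Treg signature were lower in the cko-labelled libraries. Of 24 signature genes other than the 10, 18 were lower and 6 higher, with a median log2 fold change of -0.33, and in 16 both cko-labelled libraries lay below both WT libraries. The same held for 18.9% of all tested genes. Both lay above in 2 signature genes, and in 16.0% of all tested genes. The signature median was -0.23 in the pair of libraries low in macrophage RNA and -0.57 in the pair high in it. At an unadjusted p under 0.05 with the minimum change, 4 were lower and 2 higher, and 0 passed after adjustment in edgeR. By the unadjusted rule 2.48% of all tested genes were lower and 1.60% higher. The general CD4 T-cell markers were lower by a median of -0.26, in 6 of 6 genes. The 13 pan T-cell genes had a median of -0.09, with 8 lower and 5 higher. The part of either list in the signature's values was not tested. The signature list holds genes that the study itself named for these libraries, such as *Itgae* and *Ctla4*, and is no independent evidence of a direction. *Itgae* (CD103, an integrin of tissue Treg cells) was at 59.1 and 47.1 CPM in WT and at 18.3 and 10.6 CPM in the cko-labelled libraries. *Nt5e* (CD73, which makes adenosine) was at 605 and 457 CPM against 192 and 315 CPM. *Tigit*, an inhibitory receptor, was at 92.0 and 84.3 CPM against 55.0 and 45.0 CPM. In all 3 the groups were apart, with log2 fold changes of -1.87, -1.07 and -0.82. The fourth, named after its values were seen, was the inhibitory receptor *Ctla4*, at 407 and 427 CPM against 241 and 235 CPM. The higher genes were *Ecm1*, a secreted matrix protein, at 674 and 970.2 CPM in WT and 1622 and 1125 CPM in the cko-labelled libraries, and *Itih5*, at 93.3 and 137 CPM against 178 and 168 CPM. Each of these 6 genes had an edgeR adjusted p of 0.911. DESeq2 gave *Itgae* an adjusted p of 0.00013 and *Ctla4* one of 0.0056. On simulated data DESeq2 made 43 false calls at an adjusted p under 0.05, beside 26 and 69 recovered changes of 1 and 2. There edgeR made 13 false calls beside 6 and 50.

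Genes that Foxp3 represses, or that are low in Treg cells, showed no common direction either. Of 10, 4 were higher and 6 lower, with a median log2 fold change of -0.10, which was 0.18 without WT replicate 1. At an unadjusted p under 0.05 with the minimum change 1 was higher, *Satb1*, and 2 were lower. *Ptpn22*, a phosphatase that dampens T-cell receptor signals, was at 499.8 and 409 CPM in WT and at 283 and 308 CPM in the cko-labelled libraries, a log2 fold change of -0.62 without overlap. *Ifng*, the cytokine interferon gamma, was at 16.3 and 8.90 CPM against 2.13 and 5.91 CPM, a log2 fold change of -1.65, again without overlap. Both had an edgeR adjusted p of 0.911. The 13 pan T-cell genes used for scaling had a median log2 fold change of -0.09, and their most highly counted genes, *Lck* and *Cd6*, overlapped between the groups.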

How the data were processed

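Gene counts from 4 libraries of sorted Treg cells were grouped by genotype from the labels. The authors deposited raw counts, whole numbers of reads for each Ensembl gene and library. The methods name STAR and mm9, whereas the submitters' processing notes name mm10 with Trim Galore 0.6.7, STAR 2.7.9a and featureCounts. The strand setting, the treatment of multi-mapping reads and the annotation used are not given in the sources used here. Coordinates and exon lengths were taken from GENCODE vM1 on NCBIM37 (mm9) by identifier.

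After filterByExpr 12536 genes remained. TMM factors and a quasi-likelihood model of genotype alone were fitted with edgeR 4.0.16 (R 4.3.3), and p-values were adjusted over all genes by Benjamini-Hochberg. Calls needed an adjusted p under 0.05 and a log2 fold change of 0.5 or more in either direction. Each standard error is the size of the log2 fold change over the root of the F statistic, and log2 CPM used a prior count of 2. DESeq2 1.42.0, other scalings, filters and minimum changes, a replicate block and the omission of each library were the alternatives. The fits were tested on simulated data with known changes, at an adjusted p under 0.05. Of 96 genes changed by 1 on the log2 scale, edgeR recovered 6 and DESeq2 26. Of 95 changed by 2, they recovered 50 and 69. False calls numbered 13 for edgeR and 43 for DESeq2. A member that was not called may therefore still differ. Named were all 10 genes, *Tfrc*, in each list at most 3 genes in each direction past an unadjusted p of 0.05 and the minimum change or else at most the 2 most highly counted, and the 5 genes most like *Foxp3* and *Il2ra*. The members and lists were chosen with earlier results of these data known. Replicates differed far beyond counting noise (chi-square per degree of freedom 31.1 in WT and 51 in TfR1 cko), and the p-values measure the spread between these samples, which may be in part technical. The RefSeq promoters are of GRCm38.p6. Of 183 list genes, 181 were found.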

Additional observations from a re-analysis of the deposited data

How the results depend on the processing

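With 2 libraries a group and a common biological coefficient of variation of 0.323, the spread between replicates, not depth, limits these results. A member's log2 fold change was compared with its value under another setting 130 times. Of these comparisons, 125 kept direction and, where a test was run, side of the threshold, while 3 turned and 2 passed it. The pairs by macrophage RNA had no test, so only direction was compared there. *Ikzf2* ranged from -0.70 to 0.08 with a library left out, the latter without TfR1 cko replicate 2, and *Stat5b* turned from -0.04 to 0.09 without WT replicate 1 and to 0.09 in the libraries low in macrophage RNA. *Ikzf4* (-0.77, edgeR adjusted p = 0.011) and *Nrp1* (-0.69, adjusted p = 0.034) passed with all genes of at least 1 count tested, which made 2 members lower after adjustment. The cause was not tested. That filter gave 650 higher genes at an unadjusted p, and 167 higher and 95 lower after adjustment. DESeq2 gave 6 and 28 after adjustment. With a minimum change of 1, 91 genes were higher and 104 lower at an unadjusted p, and 0 members were left. Leaving out each library gave 151 to 268 higher and 140 to 372 lower genes, the fewest lower without WT replicate 1, and 0 to 3 lower members, with 0 without TfR1 cko replicate 2 and only *Nrp1* without WT replicate 1. Without WT replicate 2 the 2 lower members were *Foxp3* and *Il2rb* (unadjusted p of 0.014 and 0.012) in place of *Ikzf4* (0.063) and *Nrp1* (0.075). In these fits the lone library of a group is assumed to vary like the others. Relative to the pan T-cell genes, 3 rather than 6 members had both TfR1 cko libraries below both WT libraries.

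With a replicate block, 70 genes were higher and 141 lower at an unadjusted p, with 2 lower members, and no call of a member changed. Libraries of the same number did not deviate together (correlation -0.609). The libraries high in macrophage RNA bear different numbers, so this value cannot tell whether equal numbers share an experiment. Pairing the numbers crosswise, which like the pairs by macrophage RNA was chosen after seeing the data, gave 596 higher and 519 lower genes, and 150 and 210 after adjustment. The members were not looked up in that crosswise fit, so whether any passed there is not known.

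*Tfrc* lay between -0.12, without TfR1 cko replicate 1, and 0.09, at 0.00 with DESeq2, with its size factors in edgeR and with no filter, 0.01 with a filter of 10 counts in each library, 0.03 with total library size, 0.04 without WT replicate 2 and 0.09 without TfR1 cko replicate 2, and 0.05 in the libraries low in macrophage RNA. The median of the members was -0.42 to -0.12 with each library left out and -0.50 in the libraries high in macrophage RNA. The median of the IL-2 signalling list was -0.08 with total library size, -0.10 with at least 10 counts, -0.10 to -0.04 with a library left out, and 0.06 and -0.05 in the libraries low and high in macrophage RNA. For the *Foxp3* regulators it was -0.07 to 0.06 with a library left out. For the Treg signature it was -0.57 in the libraries high in macrophage RNA. For the Foxp3-repressed genes it was -0.19 to 0.18 with a library left out and 0.19 in the libraries low in macrophage RNA. For the other Ikaros genes it was 0.15 and -0.48 in the libraries low and high in it, for the Nrp1 partners 0.43 with at least 10 counts, and for the pan T-cell genes -0.05 with total library size and -0.15 to 0.13 with a library left out.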
